A study of Sus scrofa with 6 samples.

Results

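Elastic fiber genes encode the protein core, the microfibrils, the fibulins and the cross-linking enzymes from which the stretchable fibers of the lung are built. A list of 10 such genes was chosen by name and function for their place in alveolar septation. It was drawn up with earlier results of these data known and held *ELN*, *FBN1*, *FBN2*, *FBLN1*, *FBLN2*, *FBLN5*, *LOX*, *LOXL1*, *MFAP4* and *LTBP4*. Of these, 8 were found by symbol among the 14579 mRNAs of the expression table. *MFAP4* and *LTBP4* were matched to no row and were not analysed here.

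The study compared lungs just before and just after the onset of breathing. All 6 piglets were female hybrids of a Tibetan sire line and a Meishan dam line, and the labels name no allele or treatment in either group. The fetal group, labelled prenatal, was 3 piglets taken from 3 sows on the day before birth was due, and the neonatal group was 3 piglets from another 3 sows, taken 2 days after birth. Each piglet gave 1 strand-specific RNA library of lung tissue, and birth, air breathing and age cannot be told apart between the groups. Values are FPKM, which counts sequenced fragments relative to transcript length and library size, so levels of different genes can be set side by side within a sample.

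Elastic fibers form when tropoelastin, the soluble product of *ELN*, is laid onto a scaffold of fibrillin microfibrils. Fibulins help to bring tropoelastin to that scaffold, and lysyl oxidases then join its lysines into cross-links that make the fiber insoluble. In the developing lung, interstitial myofibroblasts deposit elastin at the tips of the septa that divide the air spaces, and smooth muscle, endothelial and pleural cells make elastin as well.

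The libraries carried the markers of lung. *SFTPC*, the surfactant protein of alveolar type II cells, lay between 3171 and 3902 FPKM in fetal and between 4233 and 8790 FPKM in neonatal piglets. Summed over all mRNAs, FPKM ranged from 339500 to 778000 per sample and was higher in every neonatal than in every fetal sample. The median log2 difference of all mRNAs, neonatal minus fetal, was 0.13, and it moved to -0.0090 when samples were scaled by the median of ratios and to -0.04 after quantile normalization. Small positive differences are therefore read against a general shift of about that size. The tissue was whole lung, so fewer cells of a type and less RNA per cell cannot be told apart.

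In short, 1 of the 8 elastic fiber genes passed the test, as higher, where 5.41% of all mRNAs passed as higher. *LOXL1*, a cross-linking enzyme, was 2.39-fold higher in neonatal lungs by the ratio of group means. The other 7 did not pass. *FBN2*, *FBLN1* and *FBLN5* were higher in every neonatal than in every fetal piglet, and *ELN* and *LOX* were lower in every one. Of all mRNAs, 20.9% were higher in this way and 9.64% lower. *FBN1* and *FBLN2* overlapped between the groups. Differences were tested in limma on log2(FPKM + 1), a scale that understates the change of genes with low FPKM, with Benjamini-Hochberg adjustment over all mRNAs, and genes passed the test, or threshold, where the adjusted p did not exceed 0.05.

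**Figure D1:**
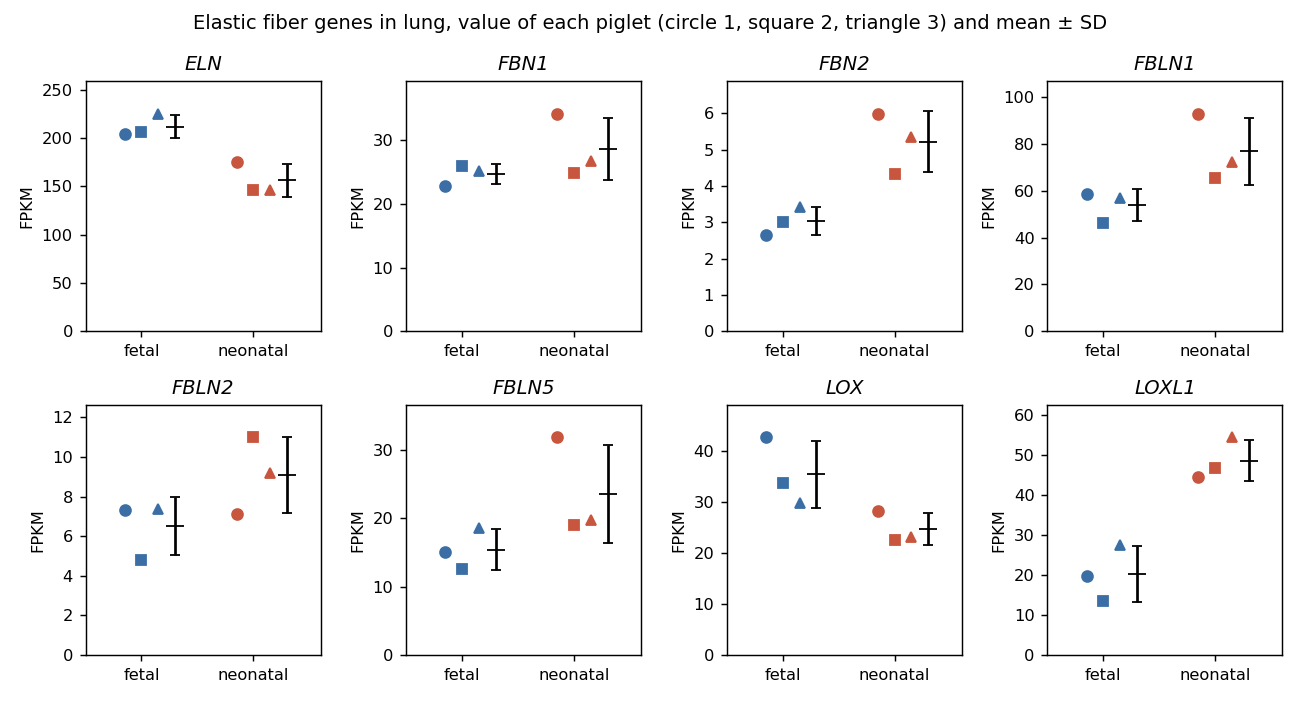
FPKM (vertical axis, linear, from 0) of the 8 elastic fiber genes in 3 fetal (blue) and 3 neonatal (red) piglets. Symbols are single piglets and black bars are the mean ± SD. *LOXL1* lies between 13.6 and 27.6 FPKM before birth and between 44.5 and 54.3 after it, whereas *ELN* lies between 204 and 225 before and between 146 and 176 after it.

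*ELN*, the elastin core, stood at 204, 206 and 225 FPKM in the fetal piglets and at 176, 146 and 146 FPKM in the neonatal piglets. The lowest fetal value was above the highest neonatal one. The difference was -0.44 ± 0.21 (SE, n = 3 per group) on the log2 scale, with a 95% interval from -0.93 to 0.04 and an adjusted p of 0.243. Scaling moved this value: it was -0.62 with median-of-ratios scaling (adjusted p = 0.114) and -0.92 after quantile normalization (adjusted p = 0.0784), still not past the threshold.

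Among the microfibril genes, *FBN1* encodes the main fibrillin of the adult. It was measured at 22.9, 25.9 and 25.2 FPKM before birth and at 34.2, 24.9 and 26.7 FPKM after it. Neonatal1 and Neonatal3 lay above all fetal piglets, and Neonatal2 lay within their range. The log2 difference was 0.20 ± 0.19 (SE, n = 3 per group; adjusted p = 0.549), and it was 0.07 without Neonatal1 and -0.06 after quantile normalization.

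*FBN2* encodes the fibrillin known for its expression in developing tissues. It stood at 2.65, 3.01 and 3.42 FPKM before birth and at 5.99, 4.33 and 5.34 FPKM after it. Every neonatal value was above every fetal one, by 1.73-fold between the means. The log2 difference was 0.62 ± 0.19 (SE, n = 3 per group), with a 95% interval from 0.17 to 1.08 that holds for this gene alone. After adjustment over all mRNAs it missed the threshold (adjusted p = 0.106).

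The fibulins bind elastin and microfibrils. *FBLN1*, which encodes a fibulin found within the elastin core of fibers, was measured at 58.8, 46.4 and 56.8 FPKM in fetal and at 93.1, 65.4 and 72.6 FPKM in neonatal lungs. The groups did not overlap, and the log2 difference was 0.50 ± 0.21 (SE, n = 3 per group; adjusted p = 0.203). With quantile normalization it was 0.16 (adjusted p = 0.692).

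*FBLN5*, which tethers tropoelastin and *LOXL1* protein to microfibrils, stood at 15.1, 12.6 and 18.6 FPKM before and at 31.9, 19.0 and 19.8 FPKM after birth. The groups did not overlap, but the highest fetal and the lowest neonatal piglet were close, and 1 neonatal piglet was far above the other 2. The log2 difference was 0.56 ± 0.25 (SE, n = 3 per group; adjusted p = 0.228), and it was 0.33 without that piglet, Neonatal1. *FBLN2*, a fibulin of basement membranes and vessel walls, stood at 7.32, 4.81 and 7.39 FPKM in fetal lungs. In neonatal lungs it stood at 7.13, 11.0 and 9.18 FPKM, overlapping the fetal range, with a log2 difference of 0.43 ± 0.23 (SE, n = 3 per group; adjusted p = 0.306) that was 0.26 without Fetal2.

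The cross-linking enzymes lay on opposite sides of 0. *LOX*, the founding lysyl oxidase, which acts on collagen and elastin, was measured at 42.7, 33.7 and 29.9 FPKM in fetal and at 28.3, 22.6 and 23.1 FPKM in neonatal piglets. All neonatal values were below all fetal ones, although Fetal3 and Neonatal1 were near each other. The log2 difference was -0.50 ± 0.20 (SE, n = 3 per group; adjusted p = 0.185), and it was -0.77 after quantile normalization (adjusted p = 0.0780).

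*LOXL1*, the family member known for the upkeep of elastic fibers, was measured at 19.6, 13.6 and 27.6 FPKM in fetal and at 44.5, 46.6 and 54.3 FPKM in neonatal piglets. The groups were far apart, with the widest spread among the fetal piglets. It rose by 1.27 ± 0.26 on the log2 scale (SE, n = 3 per group; 95% interval 0.65 to 1.88; adjusted p = 0.0337). The adjusted p ranged from 0.0280 to 0.0620 over the alternatives with all 6 samples. It passed the threshold in 1 of 6 fits that left out a piglet, the one without Fetal3 (adjusted p = 0.0373), and reached 0.119 without Neonatal3, while the log2 difference stayed between 1.02 and 1.51.

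Counted together, 1 of the 8 genes passed the threshold as higher (12.5%), where 5.41% of all mRNAs did, and 0 passed as lower in limma, where 1.45% of all mRNAs did. The threshold was passed in either direction by 6.87% of all mRNAs. At an unadjusted p under 0.05 there were 4 of the 8 (*LOXL1*, *FBN2*, *FBLN1* and *LOX*, the last of them lower), against 24.2% of all mRNAs. The groups did not overlap for 4 genes that were higher and 2 that were lower after birth, against 20.9% and 9.64% of all mRNAs. The median log2 difference of the 8 genes was 0.46 and that of all mRNAs 0.13, and with quantile normalization these were 0.22 and -0.04.

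**Figure D2:**
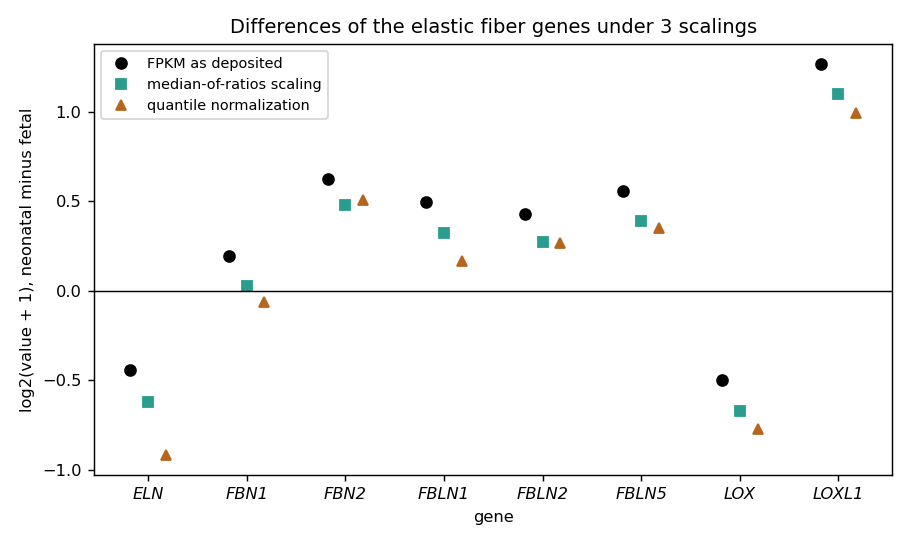
Log2 difference, neonatal minus fetal (vertical axis), of the 8 elastic fiber genes with FPKM as deposited (circles), after median-of-ratios scaling (squares) and after quantile normalization (triangles). *ELN* and *LOX* are below 0 and *LOXL1* is above 0 under all 3, from 0.99 to 1.27 for *LOXL1*, and *FBN1* changes sign between 0.20 and -0.06.

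The order of the genes by level was in part the same in every piglet. *ELN* was first and *FBLN1* second among the 8 in all 6 samples, and *FBLN2* was seventh and *FBN2* last. *ELN* was above at least 96.7% of all mRNAs in each sample, and *FBN2* was above 32.0% to 52.2% of them. The places between were taken by *LOX*, *FBN1*, *LOXL1* and *FBLN5*. Before birth their means were 35.4 ± 6.59, 24.7 ± 1.59, 20.3 ± 7.02 and 15.4 ± 3.005 FPKM (SD, n = 3), and the ranges of *FBN1* and *LOXL1*, and of *LOXL1* and *FBLN5*, overlapped. After birth *LOXL1* took the third place with 48.5 ± 5.16 FPKM (SD, n = 3), clear of its neighbours. *FBN1* at 28.6 ± 4.91, *LOX* at 24.6 ± 3.13 and *FBLN5* at 23.6 ± 7.21 FPKM (SD, n = 3) followed it, with ranges that overlapped from each to the next.

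The summed level of the 8 genes was nearly the same in both groups, 371 ± 24.3 FPKM before and 373 ± 42.4 FPKM after birth (SD, n = 3), but its make-up was not. *ELN* made up 54.7%, 59.5% and 57.1% of that sum in the fetal piglets and 41.7%, 43.0% and 40.9% in the neonatal piglets, with a wide gap between the groups. Without *ELN*, the other 7 genes summed to 159 ± 16.7 FPKM before and 217 ± 26.1 FPKM after birth (SD, n = 3). As a share of all mRNA FPKM, the 8 genes held 0.0911% ± 0.00952 before and 0.0626% ± 0.0205 after birth (SD, n = 3). The groups overlapped in this share, with 0.0856% in Neonatal1 above 0.0836% in Fetal3, and the lower neonatal mean came from Neonatal2 (0.0563%) and Neonatal3 (0.0460%). The total over all mRNAs was higher in all 3 neonatal samples. These sums and shares are given as a description with no test.

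Ratios of related genes within a piglet were taken on FPKM as deposited, and a single scaling factor per sample leaves them as they are, while quantile normalization does not. The ratio of *LOXL1* to *LOX* was 0.459, 0.403 and 0.923 in the fetal piglets and 1.58, 2.06 and 2.35 in the neonatal piglets. *LOX* was thus the more abundant of the pair in every fetal lung, and *LOXL1* in every neonatal lung. The ratio was 3.55-fold higher after birth by geometric means. The two-sided exact permutation test gave p = 0.1, the smallest that 3 animals against 3 allow, and 0.15 after adjustment over the 3 ratios computed.

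The ratio of *FBN2* to *FBN1* was 0.116, 0.116 and 0.136 before and 0.175, 0.174 and 0.200 after birth. *FBN1* remained the more abundant fibrillin in every piglet, and the groups did not overlap (1.49-fold; two-sided exact permutation p = 0.1, adjusted 0.15). The ratio of *FBLN5* to *FBLN1* was 0.257, 0.272 and 0.327 before and 0.342, 0.290 and 0.273 after birth. Here the groups overlapped, with a log2 difference of 0.08 (two-sided exact permutation p = 0.5, adjusted 0.5). Without Neonatal1 that difference was -0.011. The pairs were chosen with values of these samples known.

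**Figure D3:**
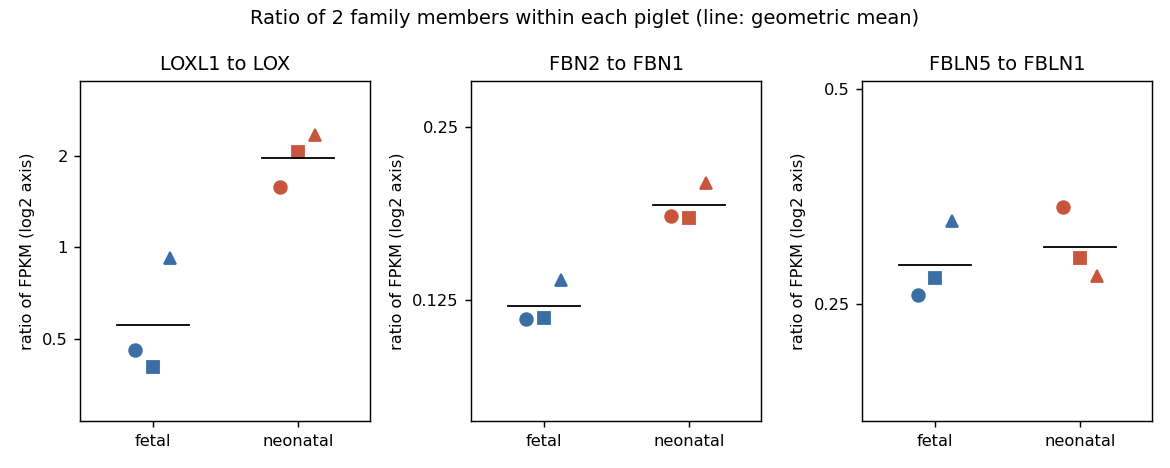
Ratio of FPKM between 2 members of a family within each piglet (vertical axes on a log2 scale), for fetal (blue) and neonatal (red) lungs, with lines at the geometric means. *LOXL1* to *LOX* is at most 0.923 in fetal and at least 1.58 in neonatal piglets, *FBN2* to *FBN1* is also separated, and *FBLN5* to *FBLN1* overlaps.

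Of 44 other genes of microfibrils, fiber assembly and the matrix around fibers, 37 had a row. Among them 10 passed the threshold as higher (27.0%) and 1 as lower, against the 5.41% and 1.45% of all mRNAs given above, and their median log2 difference was 0.37. With 1 piglet left out at a time, 4 to 8 passed as higher and 0 as lower, fewest without Fetal2 or Neonatal2. None of the 11 changed sign under any alternative tried. The list was drawn up with earlier results of these data known.

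Of the microfibril-associated genes, *MFAP2*, which encodes a glycoprotein bound to fibrillin, stood at 4.07, 4.60 and 8.16 FPKM before and at 15.2, 16.4 and 15.3 FPKM after birth. It rose by 1.38 ± 0.25 on the log2 scale (SE, n = 3 per group; adjusted p = 0.0218). *EMILIN1*, a glycoprotein at the border of elastin and microfibrils, rose from 39.2 ± 9.63 to 99.3 ± 17.6 FPKM (SD, n = 3; adjusted p = 0.0256), and its relative *EMILIN2* from 3.83 ± 0.768 to 11.0 ± 1.49 FPKM (SD, n = 3; adjusted p = 0.0134). The neonatal values of all 3 genes lay above all fetal values. With 1 piglet left out, *MFAP2* passed only without Fetal3, *EMILIN1* only without Neonatal1 and *EMILIN2* only without 1 of these, and their adjusted p otherwise reached 0.110, 0.105 and 0.0633.

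Of the 37 genes, 26 were higher and 11 lower in mean after birth. The share of all mRNAs higher in mean was not computed, but their median log2 difference was also above 0, at 0.13. The only 1 of the 37 past the threshold as lower was *EFEMP1*, which encodes fibulin 3. It was measured at 30.3, 25.5 and 31.4 FPKM before and at 14.4, 16.5 and 17.2 FPKM after birth, with the groups far apart. It fell by 0.82 on the log2 scale (SE 0.17, n = 3 per group; adjusted p = 0.0349), and missed the threshold in each fit that left out 1 piglet (adjusted p from 0.0587 to 0.112). *MMRN2*, a multimerin of the endothelium, was also lower in every neonatal piglet and was just outside the threshold (log2 difference -1.03, adjusted p = 0.0526). It falls outside the rule for named genes and was picked after its values were seen.

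Among enzymes and helpers of assembly, *PCOLCE*, an enhancer of procollagen processing, stood at 13.8, 16.3 and 17.0 FPKM before and at 49.4, 39.2 and 52.8 FPKM after birth. It rose by 1.52 ± 0.19 on the log2 scale (SE, n = 3 per group; adjusted p = 0.0072). *FKBP10*, a chaperone that binds collagen and tropoelastin in the endoplasmic reticulum, stood at 6.25, 6.19 and 6.50 FPKM before and at 21.2, 22.2 and 23.4 FPKM after birth, with little spread in either group. It rose by 1.67 ± 0.16 (SE, n = 3 per group; adjusted p = 0.0030). *LOXL4*, another lysyl oxidase, was low throughout, at 0.289, 0.132 and 0.0189 FPKM before and 1.58, 2.40 and 3.02 FPKM after birth (log2 difference 1.52, adjusted p = 0.0138). It missed the threshold without Fetal2, Fetal3 or Neonatal2 (adjusted p up to 0.0713), while *PCOLCE* and *FKBP10* passed without any 1 piglet.

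Among the matrix proteins around the fibers, *TNC* had the largest difference of the list on log2(FPKM + 1), although with a pseudocount of 0.1 that of *LOXL4* was larger (3.42 against 3.04). *TNC*, tenascin C, an anti-adhesive glycoprotein of growing tissue, was measured at 5.60, 5.49 and 9.83 FPKM in fetal and at 55.2, 53.6 and 58.9 FPKM in neonatal lungs. It rose by 2.88 ± 0.23 on the log2 scale (SE, n = 3 per group; adjusted p = 0.0018), and no piglet decided the call. *VCAN*, the proteoglycan versican, rose by 1.61 (adjusted p = 0.0067), *POSTN*, the matricellular protein periostin, by 1.36 (adjusted p = 0.0140) and *FN1*, fibronectin, by 1.02 (adjusted p = 0.0447). *POSTN* passed only without Neonatal1 among the fits without 1 piglet (adjusted p otherwise up to 0.0713). *FN1* missed the threshold in all 6 fits without 1 piglet and in 3 of the 7 other alternatives. The 2 most abundant genes of the list that did not pass were *DCN*, the collagen-binding proteoglycan decorin, at 261 ± 49.8 against 232 ± 49.3 FPKM, and *NEU1*, a sialidase that takes part in tropoelastin delivery, at 47.2 ± 5.06 against 48.6 ± 4.54 FPKM (SD, n = 3).

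**Figure D4:**
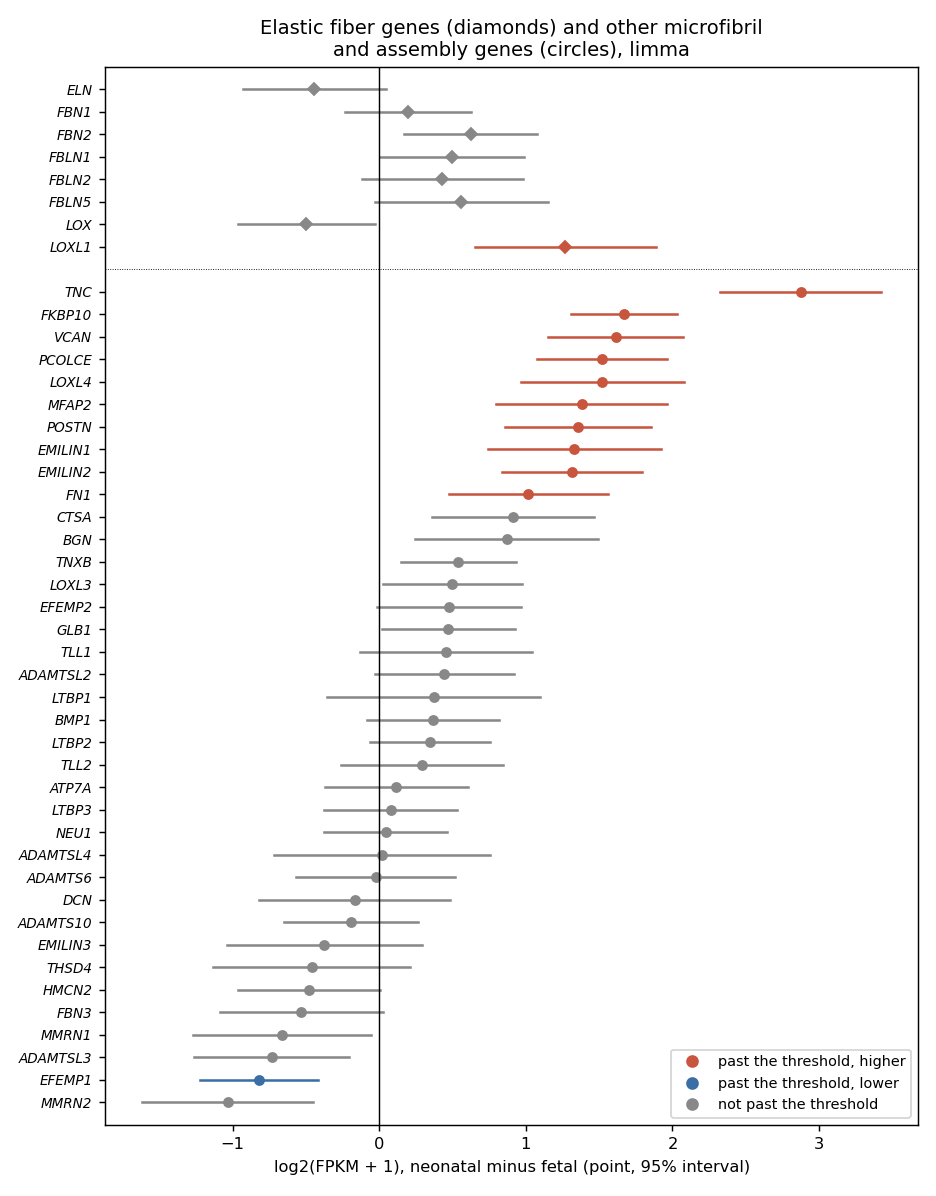
Log2(FPKM + 1), neonatal minus fetal (horizontal axis), with unadjusted 95% intervals from limma, for the 8 elastic fiber genes (diamonds) and the 37 other genes of microfibrils, assembly and surrounding matrix (circles). Red and blue mark genes past the adjusted threshold. *LOXL1* at 1.27 lies among the red genes of the lower list, which run from 1.02 for *FN1* to 2.88 for *TNC*.

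Of 23 genes for elastin breakdown and its inhibitors, 12 had a row, and 2 of them passed as higher (16.7%, against 5.41% of all mRNAs). The unadjusted limma p was under 0.05 for 8 of the 12 in either direction, against 24.2% of all mRNAs. Without overlap between the groups, 7 were higher and 2 lower, against 20.9% and 9.64% of all mRNAs. *SERPINE2*, an inhibitor of serine proteases, stood at 2.08, 0.981 and 1.61 FPKM before and at 14.9, 6.51 and 6.88 FPKM after birth, with a log2 difference of 1.96 (adjusted p = 0.0183). Among the fits without 1 piglet it passed only without Neonatal1, and the adjusted p otherwise reached 0.101. *CTSL*, a lysosomal cysteine protease, stood at 1.67, 1.38 and 1.08 FPKM before and at 7.55, 9.62 and 12.5 FPKM after birth. It rose by 2.18 (adjusted p = 0.0044), but it is uncertain, since reads of its close paralog *CTSV* could be split between the 2 genes and the pig row named *CTSL* may not be the counterpart of the human gene. The row named *CTSV* was more abundant and lay the other way, at 112 ± 21.3 before and 69.3 ± 15.5 FPKM after birth (SD, n = 3), lower in every neonatal piglet but not past the threshold.

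The 2 most abundant breakdown genes that did not pass were *A2M*, a broad protease inhibitor, and *MMP2*, a gelatinase that can cleave elastin. *A2M* varied more within the neonatal group (247, 454 and 1304 FPKM) than between the groups. *MMP2* stood at 86.1 ± 15.1 before and 121 ± 5.45 FPKM after birth (SD, n = 3; adjusted p = 0.191). *ELANE*, neutrophil elastase, was low, at 1.28, 0.562 and 0.0710 FPKM in the fetal piglets, and listed at 0 in all 3 neonatal piglets. It did not pass (adjusted p = 0.237 in limma). *MMP9* and *MMP14* lay the other way, higher in every neonatal piglet without passing (adjusted p = 0.0992 and 0.0972 in limma). *ELANE*, *MMP9* and *MMP14* are named outside the rule.

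Of 34 genes for the signals and receptors of septal myofibroblasts, 30 had a row, and 4 passed as higher (13.3%, against 5.41% of all mRNAs) and 0 as lower in limma. The unadjusted p was under 0.05 for 9 of the 30 in either direction, a share near the 24.2% of all mRNAs. *FGF18*, a growth factor of the stage when septa form, stood at 0.590, 0.996 and 0.606 FPKM before and at 5.41, 7.89 and 7.95 FPKM after birth, well apart. It rose by 2.22 ± 0.22 on the log2 scale (SE, n = 3 per group; adjusted p = 0.0037). *ITGA5*, the integrin subunit that binds fibronectin, rose by 1.06 (adjusted p = 0.0149), *SRF*, a transcription factor of contractile genes, by 1.04 (adjusted p = 0.0157) and *CCN2*, a matricellular target of TGF-beta signalling, by 1.00 (adjusted p = 0.0334). With 1 piglet left out, *CCN2* missed the threshold in all 6 fits, *SRF* passed only without Neonatal1 and *ITGA5* only without Fetal3 or Neonatal1.

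The 2 most abundant signal genes that did not pass were *ITGAV*, an integrin subunit that helps to activate TGF-beta, and the receptor gene *TGFBR2*. *ITGAV* was at 20.2, 46.3 and 34.9 FPKM before and at 30.2, 245 and 1954 FPKM after birth, so that single piglets set its mean. *TGFBR2* was at 109 ± 9.53 before and 136 ± 3.37 FPKM after birth (SD, n = 3; adjusted p = 0.340).

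Markers of smooth muscle and, for 1 gene, of leukocytes passed the threshold together with these genes. Of 7 measured markers of smooth muscle and myofibroblasts, 4 passed as higher (57.1%, against 5.41% of all mRNAs). These were *ACTA2*, *TAGLN*, *CNN1* and *ACTG2*, by 1.74 (*ACTA2*) to 2.35 (*ACTG2*) on the log2 scale (adjusted p from 0.0054 to 0.0317). *MYH11* was higher by 0.74 without passing (adjusted p = 0.135), and *DES* (0.12) and *SYNPO2* (0.08) overlapped between the groups. Without 1 piglet, *ACTG2* passed in 6 of 6 fits, *CNN1* in 4, *ACTA2* in 2 and *TAGLN* in 1. Their list summed to 375 to 611 FPKM before and to 1170 to 1823 FPKM after birth, and all 7 were detected in every piglet. The 6 fibroblast markers, with 0 past the threshold in limma and 2 at an unadjusted p under 0.05, summed to 877 to 1114 FPKM before and 1165 to 1493 FPKM after birth. *COL3A1* carried most of that sum (658 ± 69.3 against 939 ± 113 FPKM, SD, n = 3). In mean, 4 of the fibroblast markers were higher and 2 lower, *DCN* and *FGF10*, the latter lower in every neonatal piglet. Of 6 leukocyte markers, 1 passed as higher (16.7%, against 5.41% of all mRNAs), *S100A8*, a neutrophil and monocyte protein, by 2.81. The leukocyte list summed to 139 to 363 FPKM before and 440 to 921 FPKM after birth.

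The remaining lists had no marker past the threshold. The 5 endothelial markers summed to 403 to 504 FPKM before and 581 to 834 FPKM after birth, and the 7 epithelial markers to 5090 to 5952 and 6512 to 11920 FPKM, with 0 of either list past the threshold in limma and 2 of each at an unadjusted p under 0.05. Single genes set these sums. *CLDN5*, an endothelial tight junction gene, was at 229 ± 33.6 before and 537 ± 138 FPKM after birth (SD, n = 3), whereas *KDR*, a VEGF receptor gene, was lower in every neonatal piglet (57.2 ± 3.94 against 43.0 ± 2.08 FPKM), and the median log2 difference of the endothelial list was -0.10. *SFTPC* carried most of the epithelial sum, while *EPCAM*, an epithelial adhesion gene, and *SCGB1A1*, the club cell secretory protein gene, were lower in every neonatal piglet, and the median of that list was 0.05. The 8 markers of airway cartilage summed to 16.6 to 42.8 FPKM before and 27.9 to 37.5 FPKM after birth, the 2 mesothelial markers to 58.3 to 77.4 and 33.1 to 68.9 FPKM, and the 3 erythroid markers to 1224 to 2669 and 890 to 1457 FPKM. Of these last 3 lists, 0 genes passed in limma and 0 had an unadjusted p under 0.05. The part of cell type make-up in the differences of the elastic fiber genes was not tested.

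**Figure D5:**
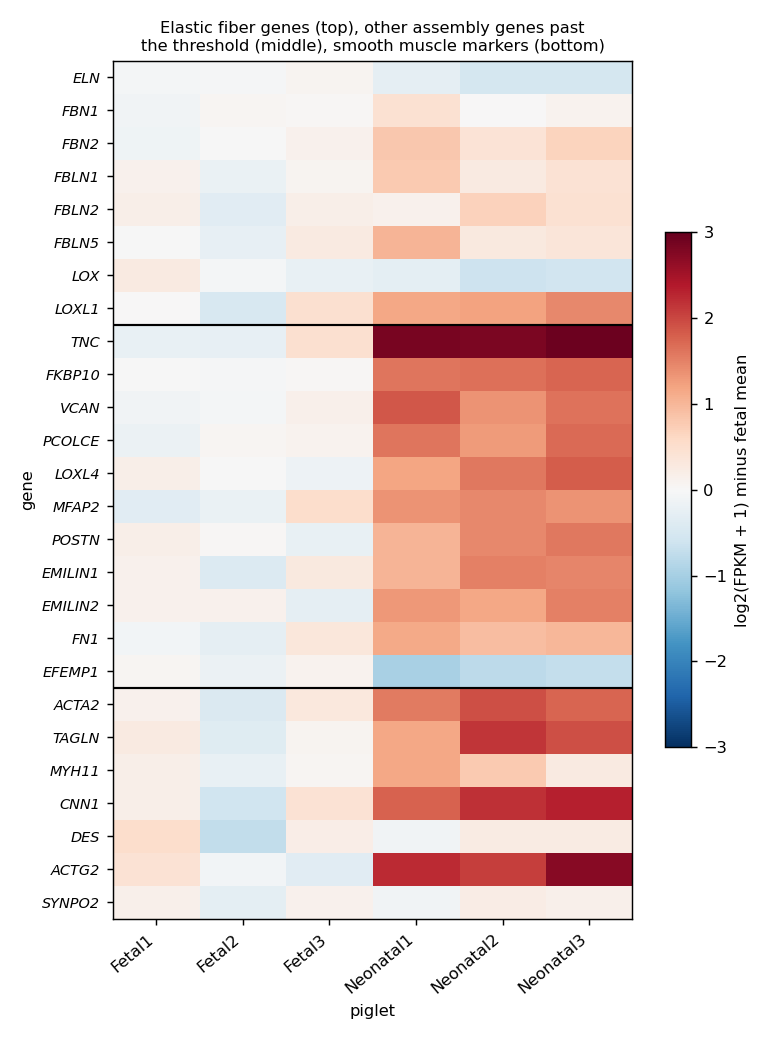
Log2(FPKM + 1) minus the fetal mean of the same gene (colour, red higher and blue lower) in each piglet, for the 8 elastic fiber genes (top), the 11 other assembly and matrix genes past the threshold (middle) and the 7 measured smooth muscle markers (bottom). *LOXL1* is red in all 3 neonatal piglets, *ELN* and *LOX* are pale blue in them, and *TNC* has the deepest red.

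Among the elastic fiber genes, the neonatal piglets did not move as 1 block. Neonatal1 had the highest neonatal value for 6 of the 8 genes, *LOXL1* and *FBLN2* being the exceptions. It also had the lowest summed FPKM of the neonatal group. The share of all mRNAs with their highest neonatal value in Neonatal1 was not computed, so the count is a description only.

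The classes and partner genes of lncRNAs were read for 1998 of the 19310 deposited lncRNAs, so those of the rest were not analysed here. Of the 1998 read, 3 were antisense to *LOXL1*, all on the plus strand of chromosome 7 (Sscrofa10.2), and none of those read had another of the 8 genes as partner. TU101653 (chr7:64103083-64103409) was at 1.41 FPKM in Fetal1 and listed at 0 in the other fetal piglets, and stood at 1.89, 7.47 and 7.86 FPKM after birth. Its log2 difference of 2.16 did not pass the threshold (adjusted p = 0.550 in limma over all lncRNAs). TU101654 (chr7:64092483-64115470) and TU101649 (chr7:64121638-64294538) were at most 1.96 and 1.09 FPKM and did not pass either. Only 0.00518% of the lncRNAs passed in that fit.

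The genes whose pattern over the 6 piglets was most like that of *ELN* were *MKLN1* (Pearson r = 0.992), *COBLL1* (r = 0.989) and *FAM161A* (r = 0.987), on log2(FPKM + 1) among 8711 named genes with a mean above 1 FPKM. With only 6 points that share 2 groups, 66 genes had r above 0.95, and these values are a description.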

How the data were processed

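Total RNA of lung from 6 piglets was depleted of ribosomal RNA and sequenced by the authors, 1 strand-specific library per piglet. The deposited values are FPKM, which the authors computed with Cufflinks 2.2.1 after TopHat 2.1.0 had aligned the reads to Sscrofa10.2. LncRNAs were assembled by the authors with StringTie 1.2.2. All 14579 mRNAs were above 0.5 FPKM in at least 1 sample, the filter the study describes. Read counts and depth did not enter the fit, so all errors given rest on differences between piglets. Values marked SD are the plain spread between the piglets of a group. Values marked SE, and the intervals, are from limma, which moved the variance of each gene toward a trend over all mRNAs. They are therefore not the spread of that gene alone, and can be wider or narrower than it. The median degrees of freedom of the fit were 7.44.

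Symbols were matched to 9478 mRNAs through a reference table and to 362 more through a supplementary gene list. FPKM was analysed as log2(FPKM + 1) in limma 3.58.1 (R 4.3.3) with a variance trend. P-values were adjusted over the whole table, for mRNAs and lncRNAs apart. The study's own count-based test could not be rerun on FPKM. The fit was tested on simulated data that held no general shift between samples, and the outcome is not reported here. Ratios were compared by exact permutation over all splits of the piglets, coded in Python 3.11.15 with numpy 2.4.6. Intervals and the adjustment of the ratio p-values used scipy 1.17.1, tables pandas 2.3.3 and figures matplotlib 3.10.9.

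Named genes were all elastic fiber genes and, of each other list, those past the threshold and the 2 most abundant that were not. Exceptions are stated where they occur. Of the marker lists, counts and ranges are given with the genes past the threshold and some that did not pass it. The members and lists were chosen with earlier results of these data known. The alternatives tried were quantile normalization, scaling by median of ratios, pseudocounts of 0.5 and 0.1, a filter that kept mRNAs above 1 FPKM in 3 or more samples, a block for the replicate number, no variance trend, each piglet left out in turn and, for the share of all mRNA FPKM, leaving out the 100 most abundant mRNAs. Protein and promoter sequences were not used here.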

Additional observations from a re-analysis of the deposited data

How the results depend on the processing

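With the replicate block, 0 of the 8 elastic fiber genes passed the threshold (*LOXL1*, adjusted p = 0.0620), as did 4 (higher) and 0 (lower) of the other assembly genes and 401 of all mRNAs, in place of 1, 10, 1 and 1001. The replicate numbers do not pair the piglets, which came from different sows, and deviations of same-numbered piglets correlated at -0.041, -0.0043 and 0.00047. With 1 piglet left out at a time, these counts ranged from 0 to 1, from 4 to 8, from 0 to 0 and from 196 to 944. The count of lower assembly genes was 2 with the FPKM filter above 1, 2 with median-of-ratios scaling and 3 after quantile normalization. Of all calls, 78.8% were higher after birth with FPKM as deposited, 66.0% with median-of-ratios scaling and 57.9% after quantile normalization. Quantile normalization took the median log2 difference of the 8 genes to 0.22 and that of *FBN1* to -0.062. The log2 ratio of *FBLN5* to *FBLN1* ranged from -0.011 to 0.19 with 1 piglet left out. Of the 17 genes of the other 3 lists past the threshold, 6 stayed past it with any piglet left out, 7 under every other alternative, and 0 changed sign. The cause of these changes was not tested. The fit had 3 piglets per group and no read counts, and whether more piglets or counts would change the calls was not tested. The differences of *ELN*, *FBN1*, *FBN2*, *FBLN1*, *FBLN2*, *FBLN5* and *LOX* did not pass the adjusted threshold. Among these genes, the groups did not overlap for *FBN2*, *FBLN1* and *FBLN5*, which were higher after birth, and for *ELN* and *LOX*, which were lower. Of all mRNAs, 20.9% were higher without overlap and 9.64% lower. Exact permutation tests of ratios could not go below p = 0.1.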
